A study of Homo sapiens with 6 samples.

Results

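TARDBP, TAF15, EWSR1, HNRNPA1, HNRNPA2B1, TIA1 and TIAL1 encode RNA-binding proteins that, like Matrin3, are mutated or found in protein aggregates in the motor neuron disease ALS (amyotrophic lateral sclerosis) and in frontotemporal dementia (FTD). These 7 genes were chosen by symbol from the 58884 gene IDs of the deposited tables, and all 7 were expressed highly enough to be tested. HCT116, a human cell line from a colorectal carcinoma, was transfected with siRNA, and RNA was measured 48 h later. The siCTRL group (3 libraries) received a non-targeting control siRNA, and the siMatrin3 group (3 libraries) received pooled siRNAs that target Matrin3 mRNA. The total count of a library ranged from 4556658 to 8400412. The study's methods call the 3 libraries of a group biological triplicates.

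Most of these proteins share a plan. They carry RNA-binding domains beside long stretches of low-complexity sequence, and in the nucleus they bind pre-mRNA and guide its splicing. TDP-43, made from TARDBP, keeps cryptic exons out of mature mRNA and lowers its own mRNA level by binding its 3′ UTR. TAF15 and EWSR1 belong to the FET family, which act in transcription and splicing. HNRNPA1 and HNRNPA2B1 are abundant hnRNP proteins that coat nascent transcripts, and TIA1 and TIAL1 regulate splicing at U-rich sites and help build stress granules. Matrin3 itself is a nuclear RNA-binding protein that represses exons near pyrimidine-rich intronic sequence.

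The intronic bases just upstream of exons are shown for each gene because they are the kind of sequence that Matrin3 binds. For each gene the 30 bases before the exon with the highest share of pyrimidines (C or T) are given 5′ to 3′ from hg38, in capitals for the longest unbroken run of pyrimidines.
EWSR1 exon 7, chr22:29286893-29286922, plus strand: TTTTTTTTTTTTCTCTTCTCTCTCTTTCag
TAF15 exon 9, chr17:35834536-35834565, plus strand: atagCTCTTTTTTCTTTTCTTTTCCCTTag
TIA1 exon 6, chr2:70227823-70227852, minus strand: ttttcaCTTCCCCTTCCTTCCCCTTataag
HNRNPA1 exon 2, chr12:54281356-54281385, plus strand: atttaacaCTTCCCCCTCCCCCCactctag
TARDBP exon 2, chr1:11013686-11013715, plus strand: gttgttcattcataTCTCTTTTCTCTTTag
TIAL1 exon 6, chr10:119580011-119580040, minus strand: tccctcatttagctgtgCTTCTTTTCacag
HNRNPA2B1 exon 11, chr7:26192339-26192368, minus strand: TTTTTTTactctttacttctgttgaaacag

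The tract before EWSR1 exon 7 held 93.3% pyrimidines with a run of 28 bases, and that before HNRNPA2B1 exon 11 held 70.0% with a run of 7. Over the 79 introns of the 7 genes the median was 63.3% pyrimidines, beside 66.7% over 133395 introns of 11913 protein-coding genes tested. By gene, the median was 70.0% in TARDBP, 66.7% in TAF15 and in TIAL1, 63.3% in EWSR1, 58.4% in HNRNPA2B1, and 56.7% in HNRNPA1 and in TIA1. These are descriptions of the reference sequence, and no binding was measured in these libraries.

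The knockdown was seen in the targeted gene. MATR3 was at 152, 143 and 144 TPM (a level scaled by transcript length and by library) in the siCTRL libraries and at 29.9, 27.3 and 26.4 TPM in the siMatrin3 libraries, without overlap. In gene counts it fell by 2.29 on the log2 scale (SE 0.060, edgeR quasi-likelihood test, adjusted p = 7.58e-11), to 20.4% of the control CPM (counts scaled by the size of a library). Among 14334 genes tested, 814 (5.68%) were higher and 743 (5.18%) lower in siMatrin3, 10.9% in all. Marker genes of cell types were summed, which does not test that the cells are HCT116. The summed level of 7 colon epithelium markers was 1077 to 1147 TPM in siCTRL and 1158 to 1169 TPM in siMatrin3, with VIL1 near 0, and EPCAM and KRT19 among them passed the test as higher. Their part in the results was not tested, and in bulk RNA fewer cells of a type and less RNA per cell cannot be told apart. Summed markers stayed at 7.41 to 10.2 TPM in siCTRL and 7.56 to 7.80 TPM in siMatrin3 for fibroblasts, at most 2.16 TPM for blood and at most 2.17 TPM for neurons, with COL1A2, COL3A1, DCN, LUM, CD3E and NEFL at 0.

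None of the 7 genes passed the test, in either direction, against a background of 10.9% of tested genes called. None had an unadjusted p under 0.05 in this fit either. In alternative fits some did, though none passed after adjustment. The unadjusted edgeR p of TAF15 was 0.048 with libraries of the same number paired and 0.029 without siMatrin3 replicate 2. By limma, unadjusted p was 0.041 for HNRNPA2B1 on log2(TPM + 1) and 0.049 for TIAL1 on TMM-scaled log2(TPM + 1). In the main fit the log2 fold changes of the 7 ran from -0.051 (TIA1) to 0.10 (TAF15), with a median of 0.013 beside -0.00065 over all tested genes. The smallest absolute log2 fold change among called genes was 0.16. The 95% confidence intervals of all 7 lay between changes of -13.3% (lower bound, TIA1) and 16.8% (upper bound, TIAL1).

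**Figure D1:**
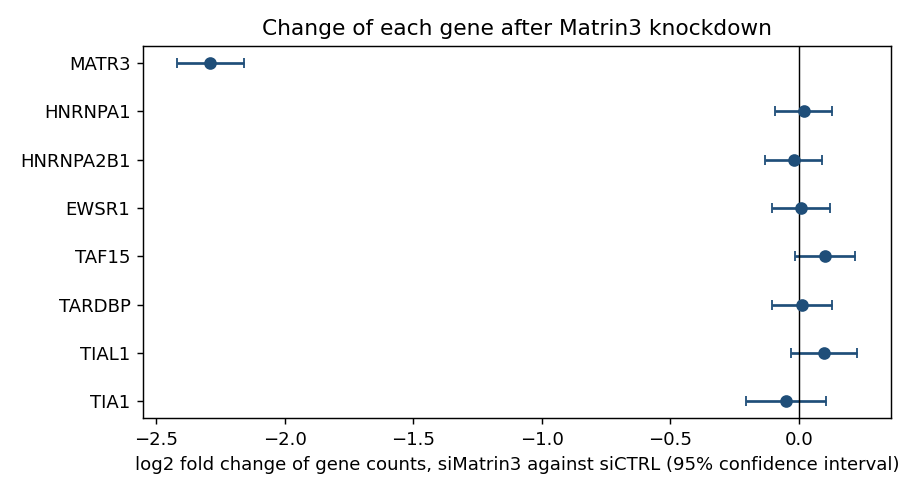
Log2 fold change of gene counts (horizontal axis, siMatrin3 against siCTRL) of MATR3 and the 7 genes, with 95% confidence intervals from edgeR. MATR3 sits at -2.29, and the intervals of all 7 genes include 0.

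TARDBP (chr1:11012344-11030528, plus strand, hg38), which encodes TDP-43, was at 105, 89.4 and 99.1 TPM in siCTRL and at 105, 90.5 and 87.8 TPM in siMatrin3. The groups overlapped, and the third siMatrin3 library was the lowest of the 6. In gene counts the log2 fold change was 0.013 (SE 0.054, edgeR adjusted p = 0.913), with an interval from -6.90% to 9.43%. TARDBP spans 18185 bases. In the GENCODE release used for positions it has 15 annotated nonsense-mediated decay isoforms, more than 99.1% of 12177 protein-coding genes tested.

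The FET family genes TAF15 and EWSR1 were close in level. TAF15 (chr17:35809482-35864615, plus strand) was at 131, 117 and 143 TPM in siCTRL and at 134, 117 and 124 TPM in siMatrin3. Its libraries overlapped on the TPM scale, and in CPM they were at 238, 228 and 236 against 256, 237 and 259. The log2 fold change in gene counts was 0.10 (SE 0.054, edgeR adjusted p = 0.266), the largest upward value of the 7. When libraries of the same number were paired, the edgeR adjusted p of TAF15 was 0.166. EWSR1 (chr22:29268009-29300525, plus strand) was at 152, 144 and 157 TPM in siCTRL and at 148, 141 and 136 TPM in siMatrin3, with overlap. Its log2 fold change in counts was 0.0071 (SE 0.052, edgeR adjusted p = 0.956). On the TPM scale the sign of TAF15 and of EWSR1 was negative, at -0.058 and -0.093 on the log2 scale. The median of all tested genes on log2(TPM + 1) was itself -0.092. Over 4488 genes with a mean of at least 20 TPM, the median was -0.062 in log2 TPM. Once TPM was rescaled by TMM, TAF15 was at 0.039 and EWSR1 at 0.0042.

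HNRNPA1 (chr12:54280193-54287088, plus strand), the most abundant of the 7, was at 757, 797 and 771 TPM in siCTRL and at 760, 747 and 681 TPM in siMatrin3. The groups overlapped. The log2 fold change in counts was 0.019 (SE 0.052, edgeR adjusted p = 0.866). HNRNPA2B1 (chr7:26171151-26201529, minus strand) was at 599, 574 and 579 TPM in siCTRL and at 556, 535 and 502 TPM in siMatrin3, and here the TPM groups did not overlap. The share of all tested genes without overlap in TPM is not given here. In CPM, HNRNPA2B1 was at 1028, 1012 and 979 against 1008, 1023 and 945, which overlap, and its log2 fold change in counts was -0.021 (SE 0.051, edgeR adjusted p = 0.847). On log2(TPM + 1) the change of HNRNPA2B1 was -0.14, and the median log2 difference between groups over all tested genes was -0.092. Over 4488 genes with a mean of at least 20 TPM, the median was -0.062 in log2 TPM. Once libraries were rescaled by TMM, the change of HNRNPA2B1 was -0.041 (limma adjusted p = 0.770). The cause of the shift in TPM was not tested. In the GENCODE release used for positions, HNRNPA2B1 has 35 annotated nonsense-mediated decay isoforms and HNRNPA1 has 18. These numbers are higher than in 99.9% and 99.4% of protein-coding genes tested. The deposited data list only 9 transcripts for HNRNPA2B1 and 14 for HNRNPA1. Not all of these decay isoforms could therefore enter the counts or the effective lengths.

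TIA1 (chr2:70209444-70248660, minus strand), the lowest of the 7, was at 46.1, 55.1 and 53.2 TPM in siCTRL and at 43.9, 52.2 and 42.8 TPM in siMatrin3, with overlap. The log2 fold change in counts was -0.051 (SE 0.072, edgeR adjusted p = 0.714), and the interval from -13.3% to 7.46% was the widest of the 7, on 266 to 522 counts a library. TIAL1 (chr10:119571802-119597029, minus strand), its paralogue, was at 92.0, 87.2 and 91.5 TPM in siCTRL and at 102, 94.6 and 86.1 TPM in siMatrin3. In CPM, TIAL1 was at 150, 150 and 135 in siCTRL and at 155, 154 and 157 in siMatrin3, and the groups did not overlap. Groups of 3 without overlap give no exact two-sided permutation p under 0.1. The share of all tested genes without overlap is not given here. The log2 fold change of TIAL1, 0.097 (SE 0.059), did not pass the test (edgeR adjusted p = 0.339) and was 0.050 without siCTRL replicate 3.

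The order of levels, per length, was the same in both groups: HNRNPA1, HNRNPA2B1, EWSR1, TAF15, TARDBP, TIAL1, TIA1. TARDBP and TIAL1 overlapped in both groups, and every other pair of neighbours had separate ranges. HNRNPA1 and HNRNPA2B1 together made up 71.2% to 73.5% of the summed TPM of the 7 genes in a library, and the mean of HNRNPA2B1 was 3.86 times that of EWSR1, the next in order, in siCTRL. All 7 were abundant in HCT116: in siCTRL their TPM ranked from the 88.3 percentile of tested genes (TIA1) to the 99.0 percentile (HNRNPA1), and MATR3 was at the 96.5 percentile.

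**Figure D2:**
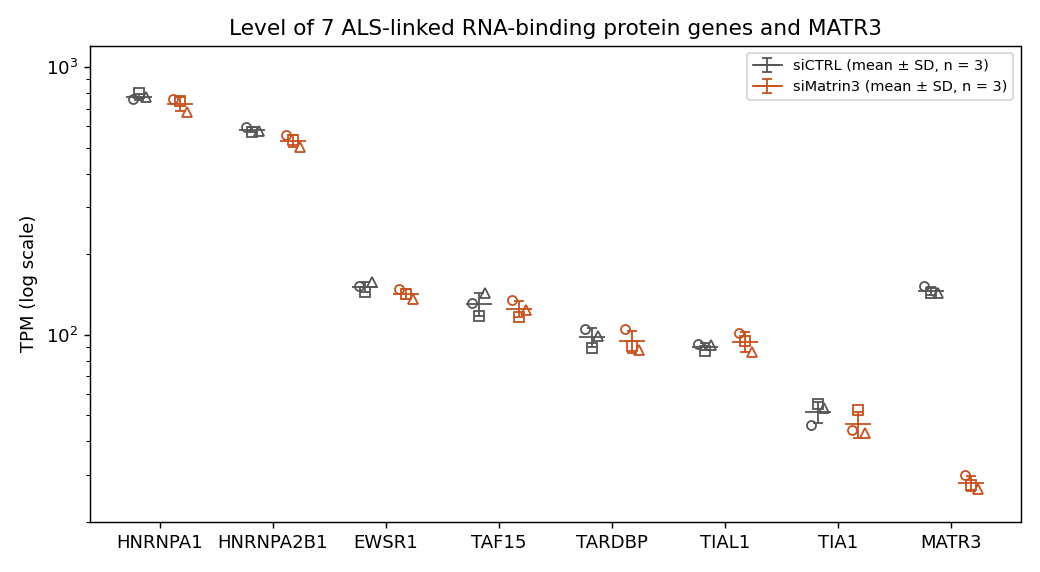
TPM of each gene (log axis) in the 3 siCTRL and 3 siMatrin3 libraries, as points for libraries 1 (circle), 2 (square) and 3 (triangle), with the mean and SD of each group. MATR3 lies near 146 TPM in siCTRL and 27.9 TPM in siMatrin3, while each of the 7 genes lies at a similar height in both groups.

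Related genes were compared as a ratio within each library, which is not affected by library scaling. HNRNPA1 to HNRNPA2B1 was 1.26, 1.39 and 1.33 in the siCTRL libraries and 1.37, 1.40 and 1.36 in the siMatrin3 libraries (exact two-sided permutation test, p = 0.3, adjusted p = 0.45 over 3 pairs). EWSR1 to TAF15 was 1.16, 1.23 and 1.10 in control libraries and 1.10, 1.21 and 1.09 after knockdown (exact permutation p = 0.6, adjusted p = 0.6). TIAL1 to TIA1 was 1.997, 1.58 and 1.72 in control libraries and 2.32, 1.81 and 2.01 after knockdown, higher by 0.21 on the log2 scale (exact permutation p = 0.2, adjusted p = 0.45). In all 3 pairs the groups overlapped, and with 3 libraries against 3 the smallest p is 0.1. A ratio of TPM still depends on the effective lengths. From expected counts in place of TPM, the groups did not overlap for EWSR1 to TAF15, with a log2 difference of -0.094 (exact permutation p = 0.1) rather than -0.035. For TIAL1 to TIA1 the difference from expected counts was 0.14 rather than 0.21 (exact permutation p = 0.2). For HNRNPA1 to HNRNPA2B1 it was 0.041 rather than 0.049 (exact permutation p = 0.3).

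Within pairs of the same replicate number, the log2 ratio of TIAL1 to TIA1 was higher by 0.22, 0.20 and 0.23 after knockdown. That of HNRNPA1 to HNRNPA2B1 was higher in 3 of 3 pairs (0.11, 0.0073 and 0.027), and that of EWSR1 to TAF15 was lower in 3 of 3 (-0.078, -0.021 and -0.0052). An exact two-sided sign-flip permutation test over 3 pairs, chosen after seeing the data, gave p = 0.25 for each, the smallest it can give (adjusted p = 0.25). The difference of TIAL1 to TIA1 ranged from 0.12 without siMatrin3 replicate 1 to 0.30 without siCTRL replicate 1, and was 0.14 without siCTRL replicate 2.

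**Figure D3:**
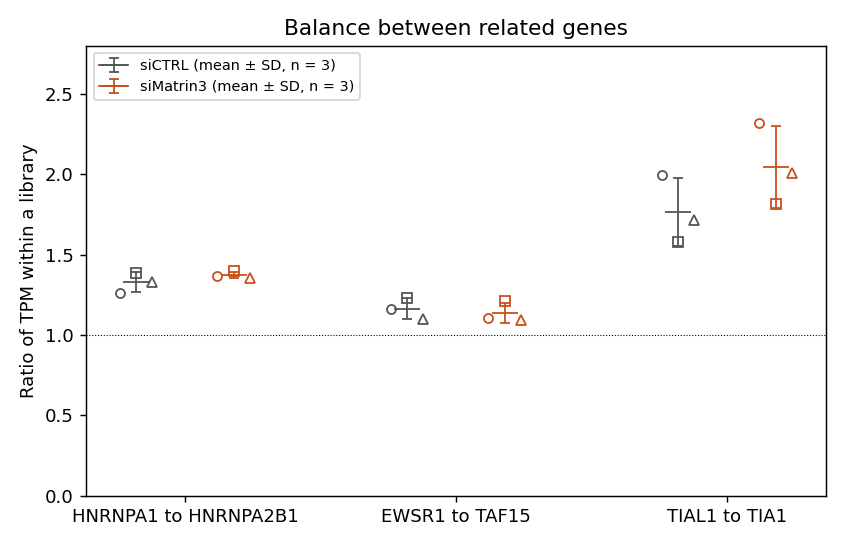
Ratio of TPM between related genes within a library (vertical axis), for siCTRL and siMatrin3, as points with the mean and SD of 3 libraries; the dotted line marks a ratio of 1. TIAL1 exceeds TIA1 in every library, with ratios from 1.58 to 2.32, and the groups overlap in all 3 pairs.

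Effective length is the mean length RSEM assigns to a gene over its isoforms, weighted by their estimated abundance. It would move if the mix of long and short isoforms changed, but not if isoforms of similar length replaced each other. Isoforms outside the authors' annotation do not enter it. TARDBP was at 1911, 2064 and 1911 bases in siCTRL and at 1776, 1930 and 1985 bases in siMatrin3. TIAL1 was at 1681, 1734 and 1546 bases against 1473, 1542 and 1701 bases. Libraries of the same group differed by more than the groups did in both. None of the 7 genes passed the test (limma on log2 effective length, adjusted p from 0.936 to 1), and the background was also 0% of 12249 genes, with 799 genes (6.52%) under an unadjusted p of 0.05 and none of the 7 among them. The 3 genes with the tightest lengths were HNRNPA2B1, HNRNPA1 and EWSR1, with an SD within groups of 0.017, 0.019 and 0.023 on the log2 scale against a median of 0.13 over the genes tested. For HNRNPA1 the 95% interval of the change ran from -6.27% to 5.87%, and for HNRNPA2B1 from -6.30% to 7.04%. For TIA1, by contrast, it ran from -14.5% to 16.01%. Because the effective length fit called no gene at all, it cannot show whether the isoform mix of the 7 genes changed.

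**Figure D4:**
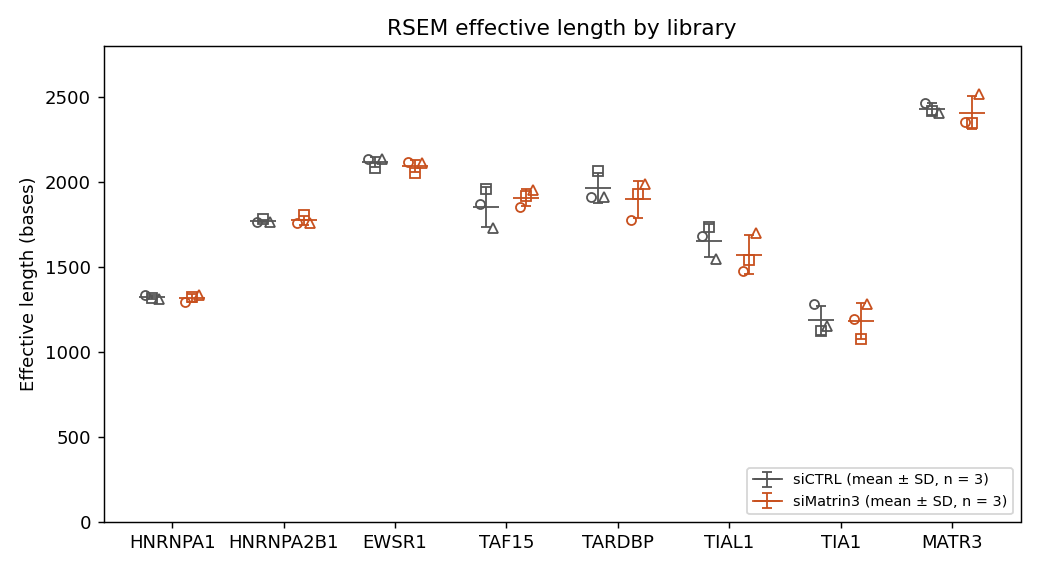
RSEM effective length in bases (vertical axis, from 0) of the 7 genes and MATR3 in each library, with the mean and SD of 3 libraries per group. The groups overlap for every gene, and the spread is smallest for HNRNPA1, HNRNPA2B1 and EWSR1.

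How surely reads can be placed differs between the genes. Of the 50-base windows in the canonical HNRNPA1 transcript, 32.7% occur in another annotated gene, against 15.6% for EWSR1, 4.23% for TARDBP, 3.53% for TIA1 and 0 for TAF15, HNRNPA2B1 and TIAL1. HNRNPA1 has many processed copies, of which 7 reached 10 counts in a library. A read that lies in a shared window cannot be told apart by its sequence.

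HNRNPA1P10, a processed pseudogene, was 99.58% identical to HNRNPA1 over 959 aligned coding bases and was assigned 158, 86.2 and 66.4 counts in siCTRL and 176, 95.8 and 65.2 in siMatrin3. HNRNPA1L3 was assigned 89.5, 141 and 82.0 counts in siCTRL and 101, 124 and 93.2 in siMatrin3, and HNRNPA1L2 22.9, 58.1 and 32.8 against 44.1, 50.4 and 38.1. The share of reads placed on all 76 copies was 4.37% to 7.46% of the summed HNRNPA1 and copy counts, and with copies added to HNRNPA1 its log2 fold change was 0.016 (edgeR adjusted p = 0.888). The EWSR1-like pseudogene on chromosome 1 held at most 1.19 counts. HNRNPA2B1 also overlaps CBX3 and NFE2L3 on the other strand, EWSR1 overlaps RHBDD3, TAF15 overlaps HEATR9, TARDBP overlaps MASP2 and, among the genes named next, G3BP1 overlaps ATOX1 and HNRNPA3 overlaps NFE2L2. Counts of overlapping genes are uncertain, since the strand setting of the counting was not given. TIA1 overlaps C2orf42 on the same strand, so strand could not separate that pair.

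Of 77 tested genes in 5 related lists, 10 were called (13.0%), beside the background of 10.9%, and the lists were not tested for enrichment. The rest of the hnRNP A/B and D relatives (5 genes) gave 0 higher and 0 lower, and HNRNPA3, the most abundant, was at 518, 489 and 474 CPM against 528, 488 and 522. Of 20 stress granule proteins, 1 was higher and 1 was lower (10% called), near the background of 10.9%. FMR1, which encodes an RNA-binding repressor of translation, was at 31.5, 35.3 and 31.2 CPM in siCTRL and at 45.8, 50.3 and 50.1 CPM in siMatrin3 (log2 fold change 0.56, SE 0.085, edgeR adjusted p = 0.00119). G3BP1, a core stress granule scaffold, was at 462, 453 and 494 CPM against 392, 405 and 404 CPM, a fall of 0.23 on the log2 scale (edgeR adjusted p = 0.0127). The call of G3BP1 was lost without siCTRL replicate 3 (edgeR adjusted p = 0.0676) or siMatrin3 replicate 1 (0.0551). The median log2 fold change of the list was 0.077, and that of the hnRNP relatives was 0.046.

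Nuclear import receptors and arginine methyltransferases carry or modify proteins of this class. Of the 12 tested, 2 were higher and 2 were lower (33.3% called, above the 10.9% background). KPNB1, importin beta, was at 562, 550 and 539 CPM against 683, 636 and 668 (log2 fold change 0.27, edgeR adjusted p = 0.00426). PRMT1, the main asymmetric arginine methyltransferase, was at 186, 201 and 181 CPM against 214, 230 and 215 (log2 fold change 0.21, edgeR adjusted p = 0.0362). KPNA6, an importin alpha, fell by 0.49 on the log2 scale, from 170, 174 and 178 CPM to 124, 121 and 128 CPM (edgeR adjusted p = 0.000145). TNPO2, a transportin, fell by 0.24, from 120, 125 and 128 CPM to 108, 103 and 106 CPM (edgeR adjusted p = 0.0207). The median of the list was 0.013 on the log2 scale. The calls of KPNB1 and KPNA6 held without any single library. That of TNPO2 was lost without siCTRL replicate 2 or 3 (edgeR adjusted p = 0.0650 and 0.0941) or siMatrin3 replicate 2 or 3 (0.0610 and 0.0636), and that of PRMT1 was lost without siCTRL replicate 1 or 3 (0.105 and 0.156) or siMatrin3 replicate 1, 2 or 3 (0.0678, 0.115 and 0.0782).

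Of 14 tested genes with exons repressed or controlled by TDP-43, 1 was higher and 1 was lower (14.3% called, beside 10.9% of all tested genes), and STMN2 and ELAVL3 were too low to test. UNC13A, which encodes a synaptic vesicle priming protein, was at 45.5, 49.8 and 56.0 CPM in siCTRL and at 63.6, 64.9 and 66.0 CPM in siMatrin3 (log2 fold change 0.36, edgeR adjusted p = 0.0126). PFKP, a glycolytic enzyme, fell by 0.31, from 227, 243 and 238 CPM to 198, 183 and 192 CPM (edgeR adjusted p = 0.0034). Of 26 other genes linked to ALS and FTD, 1 was higher and 1 was lower (7.69% called), below that background. ELP3, an Elongator subunit, was at 38.0, 32.8 and 39.3 CPM against 47.7, 44.7 and 47.1 (log2 fold change 0.36, edgeR adjusted p = 0.0197). The medians of these lists were 0.018 and 0.014 on the log2 scale. The call of UNC13A was lost without siCTRL replicate 2 (edgeR adjusted p = 0.0525) or siMatrin3 replicate 3 (0.0504), and that of ELP3 was lost when siCTRL replicate 2 (0.0923) or either of siMatrin3 replicates 1 and 3 (0.0734 and 0.0669) was left out. By limma on log2(TPM + 1), which called 149 genes in all, PFKP alone of the 10 related genes past the threshold was still called.

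**Figure D5:**
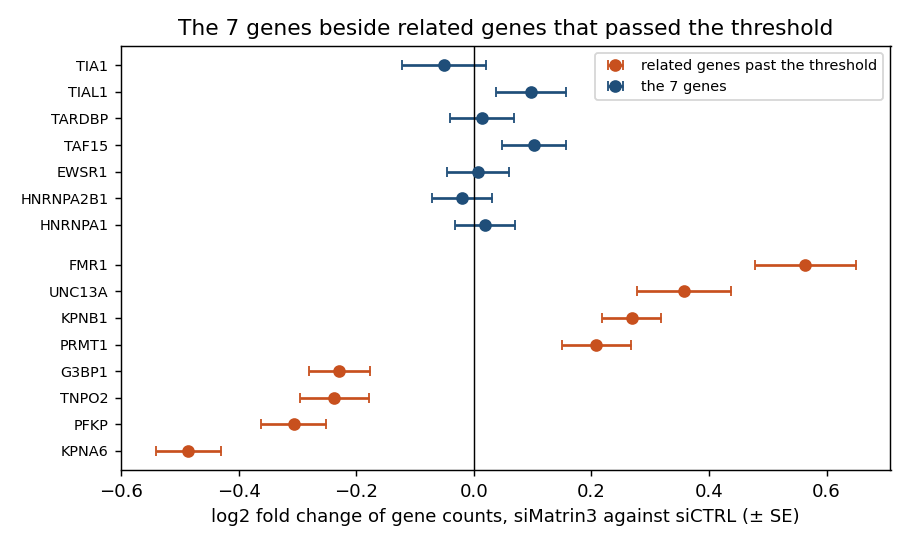
Log2 fold change of gene counts with its SE (horizontal axis) for the 7 genes, in blue, and, in orange, for the genes that passed the test among stress granule proteins, nuclear import receptors and arginine methyltransferases, and genes with exons controlled by TDP-43. The related genes were drawn because they passed the test, so they lie away from 0 by selection, from -0.49 (KPNA6) to 0.56 (FMR1).

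Some protein-coding genes varied over the 6 libraries much like a given one. By Pearson's r of log2 CPM over 6 libraries, among 7376 protein-coding genes averaging 20 CPM or more, the nearest gene was ARGLU1 to HNRNPA1 (r = 0.993), SMC4 to HNRNPA2B1 (r = 0.987), FAM83D to TIAL1 (r = 0.986), CNNM2 to EWSR1 (r = 0.985), SH2D4A to TARDBP (r = 0.981) and ITM2B to TIA1 (r = 0.977). The points share their 6 libraries, and 21 to 180 genes had r over 0.9 with a given one of the 7. Each named gene is the highest of 7376 values over 6 points, so its r is high by selection and was not tested.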

How the data were processed

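RNA-seq of HCT116 cells was analysed, 3 siCTRL and 3 siMatrin3 libraries. Per the labels, the authors used cutadapt, TopHat and RSEM on hg19. The labels name a stranded mRNA kit. In the study's methods, the 48 h time and TopHat belong to the libraries made by ribosomal RNA depletion. Its poly(A) libraries, made with the stranded mRNA kit, had repeated transfection and were aligned with STAR. Which kit was used was not tested. The deposited expected counts are the authors' RSEM estimates per gene without normalization, the deposited TPM values were scaled per library by RSEM, and the authors' effective lengths are in bases. The annotation release is not given in the sources used here, nor is the strand setting. Gene IDs were matched to GENCODE 44 on hg38 (58472 of 58884), the build of all positions and sequences.

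Expected counts were rounded, filtered by edgeR's filterByExpr (minimum count 10, minimum total 15) and scaled by TMM, and groups were compared with the quasi-likelihood test of edgeR 4.0.16 in R 4.3.3, two-sided, Benjamini-Hochberg at 0.05. Log2 effective length was tested by limma 3.58.1 with trend, in genes spanning at least 1 base. Ratios used exact permutation tests. The fits were also run on simulated data. The simulated effective lengths varied less within groups than the median of the real ones, so the power of that fit here was not shown. The biological coefficient of variation was 6.44%, and between libraries of a group the chi-square per degree of freedom was 2.62 to 4.37. Libraries of the same number deviated together (r of deviations across genes 0.107, 0.104 and 0.157), so numbers were taken to pair the libraries. This pairing was used only in fits with the replicate number as a block and in the sign-flip test. The main tests left it out.

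Members and gene lists were chosen with earlier results of these data known. Named genes were MATR3, the 7 genes, per list up to 4 genes past the threshold by lowest p (where fewer than 2 passed, also the most abundant), copies with at least 10 counts in a library, and the gene nearest each of the 7 by r. Some genes and sequences that this rule gave are not reported here. DESeq2 1.42.0 and other alternatives were tried.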

Additional observations from a re-analysis of the deposited data

How the results depend on the processing

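None of the 7 genes was called in counts under any of 18 alternative fits, DESeq2 included, or in effective length under any of 10. The total of called genes was 1557, and it moved to 204 with an effective length offset, 149 by limma on log2(TPM + 1), 132 on log2(TPM + 0.1), 589 at an adjusted p of 0.01, and 707 to 1256 when single libraries were left out (707 without siCTRL replicate 3, 939 without siMatrin3 replicate 1, 873 without siMatrin3 replicate 3); on TMM-scaled log2(TPM + 1), chosen after seeing the data, it was 78. With the replicate block it was 2259, and the block changed no call of the 7 genes. The causes were not tested. In effective length, 0 to 1 gene was called when single libraries were left out (1 without siMatrin3 replicate 1 and 1 without siMatrin3 replicate 3), and 0 with the replicate block.

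Small fold changes changed sign, none past the threshold. TARDBP went to -0.00033 with at least 50 counts in 3 libraries. EWSR1 went to -0.00054 with upper quartile scaling and to -0.0067 with at least 50 counts. On both TPM scales TARDBP went to -0.053, TAF15 to -0.058, HNRNPA1 to -0.089 and HNRNPA3 to -0.047. EWSR1 went to -0.092 on log2(TPM + 1) and to -0.093 on log2(TPM + 0.1). The median of all tested genes was itself -0.092 and -0.10 on these scales. Over 4488 genes with a mean of at least 20 TPM, the median was -0.062 in log2 TPM. On TMM-scaled log2(TPM + 1) all of these were positive: TARDBP 0.043, TAF15 0.039, HNRNPA1 0.0081, HNRNPA3 0.049 and EWSR1 0.0042. Leaving out single libraries gave TARDBP -0.0047 to 0.045, EWSR1 -0.024 to 0.030, HNRNPA1 -0.0060 to 0.055, HNRNPA2B1 -0.045 to 0.010, TAF15 0.076 to 0.14, TIAL1 0.050 (without siCTRL replicate 3) to 0.13 and TIA1 -0.076 to -0.0091 (without siMatrin3 replicate 1) in counts, and TAF15 -0.0056 to 0.085, HNRNPA1 -0.016 to 0.0077, HNRNPA2B1 -0.011 to 0.0089 and TIA1 -0.065 to 0.062 in log2 effective length. The log2 balance of EWSR1 to TAF15 ran from -0.081 to 0.0048, that of HNRNPA1 to HNRNPA2B1 from 0.014 (without siCTRL replicate 1) to 0.082 (without siCTRL replicate 2) and that of TIAL1 to TIA1 from 0.12 to 0.30.

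Of 10 related genes called in counts, none changed sign, 9 lost the call with an effective length offset, 9 on log2(TPM + 1), 9 on log2(TPM + 0.1) and 10 on TMM-scaled log2(TPM + 1). MATR3 kept its call under all 18 alternative fits.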
